A study of Sus scrofa with 6 samples.

Results

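The microRNAs miR-143-3p and miR-145 were taken from the array by their row names, ssc-miR-143-3p and ssc-miR-145, as 2 of 236 rows that carried the name of a pig miRNA, among 336 rows in all. Their expression was measured in the liver of newborn male piglets of a pair of purebred lines, Large White (LW), a Western breed, and Erhualian (EHL), a Chinese indigenous breed. Each breed had 3 arrays, and each array held the size-selected small RNA of 2 pooled male littermates, with a litter of its own behind each array. The signal was the fluorescence of a single dye, Cy5, after background subtraction and LOWESS normalization by the authors. Pooling hides the spread between littermates. The piglets came from neighboring farms, and the methods do not state which breed came from which farm, so any effect of farm was not tested.

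The genes of miR-143 and miR-145 lie side by side and are transcribed together in mammals. Both miRNAs are best known from smooth muscle, where serum response factor and its partner myocardin drive their transcription and where they favour the contractile, differentiated state. They are also made by fibroblasts and other mesenchymal cells. In liver such cells sit in the walls of vessels and bile ducts and among the stellate cells, while hepatocytes make up most of the tissue. In the Sscrofa11.1 gene table, MIR143 and MIR145 lay on the same chromosome with 0 genes starting between them.

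The tissue label was checked against miRNAs known from hepatocytes. The liver miRNA miR-122 had signals of 28071, 18958 and 23800 on LW arrays 1, 2 and 3 and of 20649, 20007 and 18287 on EHL arrays 1, 2 and 3. It was the brightest named row on every array. Rows for miR-192 and miR-148a were listed on all 6 arrays too, while the row of miR-194, another hepatocyte miRNA, was blank on all of them. A blank cell carries no level, and although low fluorescence and substitutions against the probe are reasons given for undetected miRNAs, the limit below which a cell was left blank is not given in the sources used here. The number of named rows with a value was 119, 134 and 121 on the LW arrays and 123, 101 and 117 on the EHL arrays. EHL array 1 stood farthest from the other arrays of its breed, with a correlation of 0.936 with their mean over 96 rows listed on all 6 arrays, against 0.949 to 0.986 for the other arrays. The breed differences of miR-143-3p and miR-145, of their ratio and of their ratios to the mean of the hepatocyte miRNAs are given, on the values as listed, with and without this array.

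The signal of miR-143-3p was 306, 264 and 212 on LW arrays 1, 2 and 3 and 308, 398 and 484 on EHL arrays 1, 2 and 3. All EHL arrays lay above all LW arrays, but the dimmest EHL array and the brightest LW array nearly met, at 308 and 306. On the log2 scale the signals were 8.26, 8.04 and 7.73 in LW and 8.27, 8.64 and 8.92 in EHL. The signal averaged 261 ± 47.1 over the LW arrays and 397 ± 88.0 over the EHL arrays (mean ± SD, n = 3). The order of the arrays put EHL arrays 3 and 2 on top and LW arrays 2 and 3 at the bottom, with EHL array 1 and LW array 1 level in the middle. In bulk liver, fewer cells of a type and less RNA per cell cannot be told apart.

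**Figure D1:**
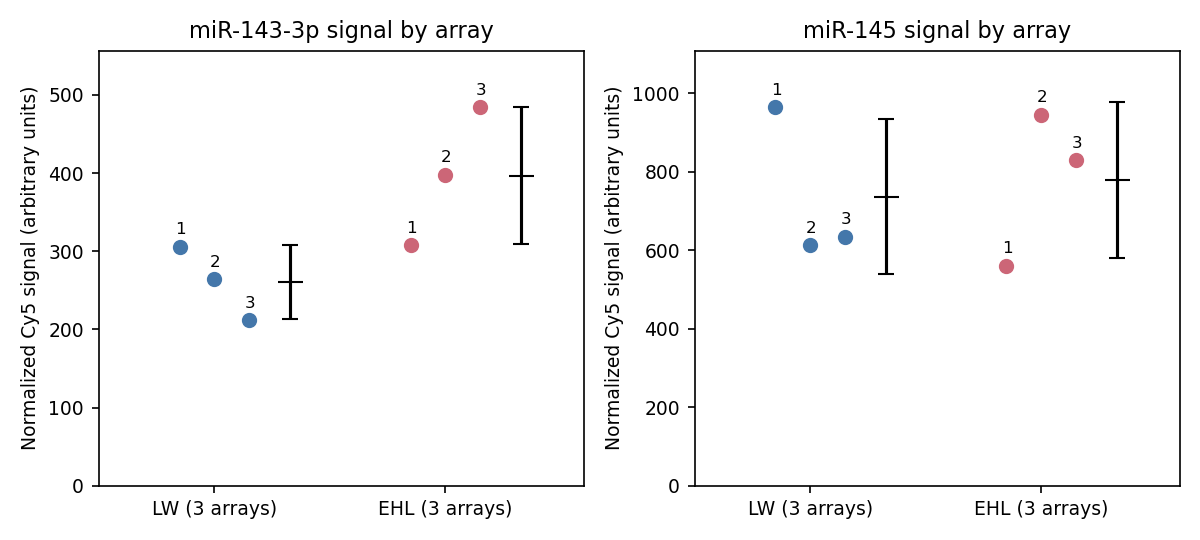
Normalized Cy5 signal (arbitrary units, linear axis from 0) of miR-143-3p and miR-145 on each LW and EHL array, with the array number above each point and the mean ± SD (n = 3 arrays) in black. For miR-143-3p the LW arrays lie between 212 and 306 and the EHL arrays between 308 and 484, whereas for miR-145 both breeds spread over much of the same range, 613 to 964 and 560 to 946.

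The log2 (EHL/LW) of miR-143-3p was 0.60 (standard error 0.28), a 1.51-fold higher mean signal in EHL with a 95% interval from 0.977 to 2.34. The difference did not pass the threshold of 0.15 on the adjusted p (limma, Benjamini-Hochberg over 109 rows tested, adjusted p = 0.443). The exact two-sided permutation test gave p = 0.1, the smallest p that 3 arrays against 3 can give. By limma, 1 of the 109 miRNAs tested, or 0.917%, was called in either direction, and neither miR-143-3p nor miR-145 was that miRNA, which was miR-184. The count of called miRNAs was 2 without LW array 1, 0 without LW array 3 and 0 without EHL array 2, where 5 and 10 miRNAs had an unadjusted p under 0.05 in the latter fits. By SAM, which called 8, the q-value of miR-143-3p was 23.7%. Of the 96 miRNAs listed on all 6 arrays, 11, or 11.5%, had every EHL array above every LW array, and miR-143-3p was 1 of them. The median difference of all rows tested was 0.025, and their median absolute difference was 0.27, below that of miR-143-3p. Without EHL array 1 the log2 (EHL/LW) of miR-143-3p was 0.77 and passed the threshold (limma, adjusted p = 0.108), and in that fit 24 of 97 rows, or 24.7%, were called. EHL array 1 was the lowest EHL array for miR-143-3p, so leaving it out raises the difference. Without EHL array 3, the highest, the difference was 0.44 (limma, adjusted p = 0.893). Without LW array 3, the lowest, it was 0.46 (limma, adjusted p = 0.976). Over all settings run, the adjusted p of miR-143-3p lay between 0.108 and 0.976.

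The signal of miR-145 was 964, 613 and 634 on LW arrays 1, 2 and 3 and 560, 946 and 830 on EHL arrays 1, 2 and 3. The breeds overlapped fully, with the brightest array in LW and the dimmest in EHL. On the log2 scale the signals were 9.91, 9.26 and 9.31 in LW and 9.13, 9.89 and 9.70 in EHL. The signal averaged 737 ± 197 over the LW arrays and 779 ± 198 over the EHL arrays (mean ± SD, n = 3). LW array 1 and EHL array 2 differed from each other less than either did from the next arrays of its own breed. The log2 (EHL/LW) of miR-145 was 0.077 (standard error 0.31), or 1.05-fold, with a 95% interval from 0.653 to 1.70-fold (limma, adjusted p = 0.974). The interval reaches from a lower to a higher mean signal in EHL, so a similar level in the breeds is not shown. The exact two-sided permutation test gave p = 1 for miR-145. Without EHL array 1 its log2 (EHL/LW) was 0.30 (limma, adjusted p = 0.589, within a range from 0.589 to 0.990 over all settings). Its sign turned to -0.040 without LW array 2, to -0.016 without LW array 3 and to -0.081 without EHL array 2.

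Centring each array on the median of all its listed named rows, a setting added after the data had been seen, moved every difference of rows listed on all 6 arrays by -0.28. The log2 (EHL/LW) was then 0.31 for miR-143-3p and -0.21 for miR-145. The rows listed differ between arrays, and 101 were listed on EHL array 2 against 134 on LW array 2. Centring on the 96 rows common to all arrays moved the differences by -0.043.

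The spread between arrays of a breed was close to that of other miRNAs for miR-143-3p and somewhat wider in LW for miR-145. The SD of the log2 signal of miR-143-3p was 0.27 among LW arrays and 0.33 among EHL arrays. For miR-145 it was 0.36 among LW arrays and 0.39 among EHL arrays. The median over all rows tested was 0.27 for LW and 0.37 for EHL. Both miRNAs were far above the dimmest listed rows. The signal of miR-143-3p was between 16.3 and 44.0 times the lowest listed signal of its array, and that of miR-145 between 48.8 and 75.5 times. Ranked from the brightest among the 96 rows listed on all arrays, miR-143-3p was number 41, 46 and 48 on the LW arrays and number 40, 36 and 33 on the EHL arrays. Its ranks, which need no scaling of the arrays, thus separated the breeds as narrowly as its signals did. The ranks of miR-145 were 18, 27 and 29 in LW and 32, 19 and 20 in EHL, and overlapped. Neither ranks nor signals of different probes tell which miRNA is more abundant, because hybridization varies from probe to probe.

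The other strand of the miR-143 hairpin, miR-143-5p, had a row that was listed on EHL array 3 alone, at a signal of 13. This was also the array on which miR-143-3p was brightest. With 1 listed value near the lowest signals of the array, miR-143-5p was not tested.

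The ratio of miR-143-3p to miR-145 within an array is free of any scaling of the whole array. It shows whether the pair changed unequally and is no ratio of abundances. The log2 ratio was -1.66, -1.22 and -1.58 on LW arrays 1, 2 and 3 and -0.86, -1.25 and -0.78 on EHL arrays 1, 2 and 3. EHL arrays 1 and 3 were above all LW arrays, while EHL array 2 fell just below LW array 2. On the linear scale, the signal of miR-143-3p was 0.317, 0.431 and 0.334 of that of miR-145 in LW and 0.550, 0.421 and 0.583 in EHL. The log2 ratio averaged -1.48 ± 0.24 over the LW arrays and -0.96 ± 0.25 over the EHL arrays (mean ± SD, n = 3). The breeds differed by 0.52 on the log2 scale, or 1.43-fold, slightly more than the distance from the lowest to the highest array within either breed. The exact two-sided permutation test gave p = 0.2, and 0.45 after Benjamini-Hochberg adjustment over the 3 ratios computed within arrays. Since 0.1 is the smallest p of each exact permutation test, an adjusted p under 0.15 would have needed p = 0.1 for all 3 ratios. Without EHL array 1 the difference was 0.47 (exact permutation p = 0.3). With quantile normalization the log2 ratio was -1.64, -1.45 and -1.45 in LW and -0.62, -1.21 and -0.86 in EHL, so that the breeds no longer overlapped and differed by 0.62 (exact permutation p = 0.1). Whether the breeds overlap in this ratio thus depended on the normalization. EHL array 1 reached its high ratio by another route than EHL array 3, since miR-145 had its lowest signal of all arrays there, 560, whereas on EHL array 3 miR-143-3p had its highest, 484.

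Set against the hepatocyte miRNAs of the same array (the mean log2 signal of miR-122, miR-192 and miR-148a), the log2 ratio of miR-143-3p was -3.90, -4.21 and -4.44 on LW arrays 1, 2 and 3 and -4.37, -3.20 and -3.21 on EHL arrays 1, 2 and 3. EHL arrays 2 and 3 were above all LW arrays, and EHL array 1 lay among them. The breeds differed by 0.59 on the log2 scale (exact two-sided permutation p = 0.3, adjusted over the 3 ratios 0.45), and by 0.98 without EHL array 1 (exact permutation p = 0.1, the smallest that 3 arrays against 2 can give). For miR-145 the log2 ratio to the hepatocyte miRNAs was -2.24, -2.999 and -2.86 in LW and -3.51, -1.95 and -2.43 in EHL. The highest and the lowest of these values were both in EHL. The difference was 0.071 (exact two-sided permutation p = 1, adjusted over the 3 ratios 1), and it took the other sign without LW array 2 (-0.078), LW array 3 (-0.010), EHL array 2 (-0.27) or EHL array 3 (-0.028). Without EHL array 1 it was 0.51 (exact permutation p = 0.3). On EHL array 1, miR-148a had a signal of 2256, against 669 to 1326 on the other arrays. Against miR-122 alone, which leaves out miR-148a and miR-192, the log2 ratio of miR-143-3p was -6.52, -6.17 and -6.81 in LW and -6.07, -5.65 and -5.24 in EHL. The breeds did not overlap on this scale, with EHL array 1 above all LW arrays, and differed by 0.85 (exact permutation p = 0.1). However, miR-122 itself had a log2 (EHL/LW) of -0.25, which raises the difference of every row listed on all 6 arrays by 0.25 on this scale. How many of all rows lose their overlap on this scale was not counted. For miR-145 the log2 ratio to miR-122 alone was -4.86, -4.95 and -5.23 in LW and -5.20, -4.40 and -4.46 in EHL. Here EHL array 1 lay among the LW arrays and the difference was 0.33 (exact permutation p = 0.3). The overlap of the breeds for miR-143-3p was therefore found with the mean of 3 hepatocyte miRNAs and not with miR-122 alone.

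**Figure D2:**
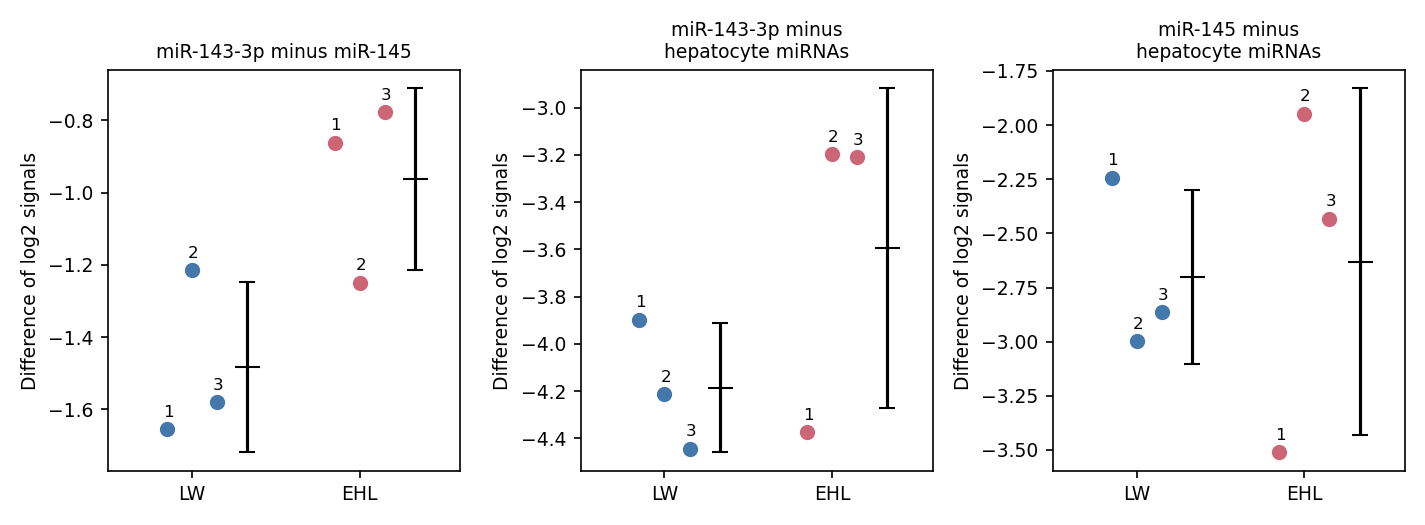
Difference of log2 signals within each LW and EHL array for miR-143-3p and miR-145, and for each of them against the mean of the hepatocyte miRNAs miR-122, miR-192 and miR-148a, with the array number above each point and the mean ± SD (n = 3 arrays) in black. The mean log2 ratio of miR-143-3p to miR-145 is -1.48 in LW and -0.96 in EHL, with EHL array 2 among the LW arrays, and EHL array 1 is the lowest EHL array in both ratios to hepatocyte miRNAs.

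Over the 6 arrays, the log2 signals of miR-143-3p and miR-145 had a Pearson's r of 0.576 (exact permutation p = 0.254) and a Spearman's rho of 0.257 (exact permutation p = 0.658), in 1 relation computed. The cluster members thus showed no clear common order over the arrays. Without EHL array 3 and LW array 3, the arrays farthest from the median of miR-143-3p, r was 0.613. Taken as deviations from the breed means, a description that removes the breed difference, r was 0.767. Of the 95 other miRNAs listed on all arrays, miR-145 was number 33 in likeness to miR-143-3p, and miR-143-3p was number 24 in likeness to miR-145.

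The 3 miRNAs whose log2 signals were most like those of miR-143-3p over the 6 arrays were miR-500, miR-532-5p and miR-24, with r of 0.995, 0.986 and 0.961. Each of them placed the 6 arrays in the same order as miR-143-3p did. The signal of miR-500 was 23, 20 and 16 on the LW arrays and 24, 34 and 45 on the EHL arrays. Its value on LW array 3 was near the lowest listed signal of that array, 13. The signal of miR-532-5p was 114, 80 and 64 in LW and 123, 192 and 354 in EHL. The signal of miR-24 was 395, 357 and 274 in LW and 426, 477 and 814 in EHL. In all of them EHL array 1 came just above LW array 1, as for miR-143-3p. The miRNAs most like miR-145 were miR-744, miR-107 and miR-181b, with r of 0.912, 0.905 and 0.885. The signal of miR-744 was 44, 27 and 27 in LW and 27, 40 and 47 in EHL. The signal of miR-107 was 272, 161 and 166 in LW and 192, 257 and 227 in EHL. The signal of miR-181b was 213, 135 and 136 in LW and 123, 168 and 210 in EHL. Like miR-145, these miRNAs were bright on LW array 1 and on EHL arrays 2 and 3 and dimmer on the other arrays. These likenesses are a description over arrays that share the breed difference and a normalization, with the closest rows picked out of 95.

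**Figure D3:**
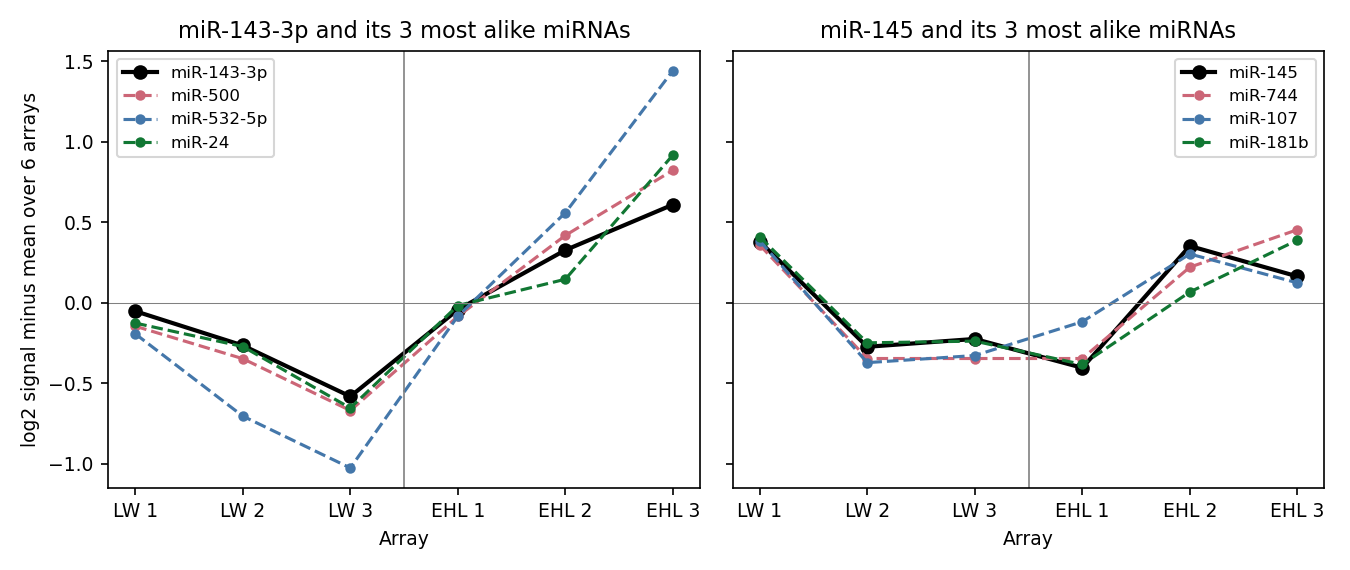
Log2 signal minus its mean over the 6 arrays for miR-143-3p and miR-145 (black) and the 3 miRNAs most like each, on LW arrays 1 to 3 and EHL arrays 1 to 3, with lines that only join the points of a miRNA. The rows like miR-143-3p (r of 0.961 to 0.995) have their highest point on EHL array 3 and their lowest on LW array 3, and the rows like miR-145 (r of 0.885 to 0.912) are high on LW array 1 and EHL arrays 2 and 3.

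Other miRNAs known from vascular smooth muscle had 10 rows on the array. Of these, 5 were tested and 0 were called in either direction (limma, adjusted p between 0.291 and 0.974). Their log2 (EHL/LW) was above 0 for 1 and below 0 for 4, with a median of -0.31, against 56 above and 53 below 0 with a median of 0.025 over all rows tested. The summed signal of the list was 14748, 17201 and 14163 on the LW arrays and 15978, 12935 and 15340 on the EHL arrays, most of it from miR-26a, a miRNA of many tissues. The row above 0 was miR-24, which is also widely expressed, with a log2 (EHL/LW) of 0.70 and no overlap of the breeds (limma, adjusted p = 0.415). Without EHL array 1, a setting added after the data had been seen for the rows of the lists, miR-24 was the 1 of these 5 rows that was called (0.88; limma, adjusted p = 0.0958), in a fit that called 24.7% of all rows. The row of miR-221, a miRNA linked to the proliferating state of smooth muscle, had signals of 547, 320 and 387 in LW and 203, 217 and 298 in EHL. For miR-221 the EHL arrays all lay below the LW arrays, which held for 7 of the 96 miRNAs listed on all arrays, or 7.29%. Its log2 (EHL/LW) was -0.79 (standard error 0.30; limma, adjusted p = 0.291), opposite in sign to miR-143-3p. Its cluster neighbour miR-222 stood at -0.31 with overlapping breeds. The signal of miR-21 ranged from 22 to 347, so that its log2 (EHL/LW) of -0.84 came with a standard error of 0.97. The muscle miRNA miR-133a-3p was listed at 17 and 14 on LW arrays 2 and 3 and at 14 on EHL array 1, near the lowest signals, and miR-1, miR-146a, miR-24* and miR-133a-5p were blank on all arrays.

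Of the 8 rows of striated muscle miRNAs, 7 were blank on all arrays, among them miR-1, miR-133b and miR-206, and miR-133a-3p was the exception. Whether any row of the array is particular to smooth muscle cells was not tested, nor was the cell type behind miR-143-3p and miR-145.

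Stellate cells and fibroblasts, which also make miR-143 and miR-145, were represented by 6 rows of the miR-199 and miR-214 group. Of these, 5 were tested and 0 called (limma, adjusted p between 0.505 and 0.974), with 1 above 0, 4 below 0 and a median of -0.20. The 4 rows below 0 were all rows of miR-199a or miR-199b, so they do not count as 4 separate miRNAs. Whether their probes read the same miRNA was not tested. Centring on all listed rows, which left 28 of all 109 rows tested above 0 and 81 below, gave 0 above and 5 below in this list. The row miR-199a-3p had signals of 958, 1158 and 1070 in LW and 779, 1013 and 613 in EHL. EHL array 3, the brightest for miR-143-3p, was the dimmest for miR-199a-3p. The row miR-199b* had a log2 (EHL/LW) of -0.58 (limma, adjusted p = 0.505) and was another of the 7 miRNAs lower in EHL without overlap, and miR-214, made from the same transcript as a copy of miR-199a, stood at 0.18 with overlap. The summed signal of the list was 5619, 6122 and 5118 on the LW arrays and 4371, 6636 and 4273 on the EHL arrays. Of the matrix-targeting miR-29 family, miR-29a had a log2 (EHL/LW) of -0.0045 (standard error 0.41), miR-29b was listed at 11 on EHL array 1 alone and miR-29c was blank.

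The endothelial miRNA miR-126 had signals of 2209, 4098 and 3436 in LW and 4524, 3110 and 3506 in EHL. Its breeds overlapped, and its lowest array, LW array 1, was the brightest for miR-145. Its log2 (EHL/LW) was 0.22 (standard error 0.31; limma, adjusted p = 0.833), and -0.063 with centring on all listed rows, and miR-126* was blank on all arrays. Of the blood cell miRNAs, miR-451 had signals of 220, 100 and 134 in LW and 376, 54 and 63 in EHL, and its log2 (EHL/LW) was -0.40 (standard error 0.67; limma, adjusted p = 0.833). The sign depended on the averaging, as the log2 ratio of its mean linear signals, 151 and 164, was 0.12. Without EHL array 1 the log2 (EHL/LW) of miR-451 was -1.30 and was called (limma, adjusted p = 0.0333), again beside 24.7% of all rows. The erythroid miRNA was thus brightest on EHL array 1, where miR-145 was dimmest, and its part in the values of that array was not tested. The other blood rows were miR-486 at 0.015 with overlap, miR-142, listed at 12 on EHL array 3 alone, and miR-155, which was blank. The hepatocyte miRNAs miR-122, miR-192 and miR-148a had log2 (EHL/LW) of -0.25, 0.12 and 0.15 with 0 of 3 called. For these 3 rows, 2 were above 0 as listed and with median centring, and 0 with centring on all listed rows, a shift common to all rows. In the main limma fit of all 6 arrays, without array weights or a block, 0 rows of these lists were called. In that fit 1 of all 109 rows tested, or 0.917%, was called. At an unadjusted p under 0.05 there were 13 of all 109 rows, with miR-221 of the lists among them (limma, unadjusted p = 0.0253). Calls in the lists were not counted in the other fits of all 6 arrays.

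**Figure D4:**
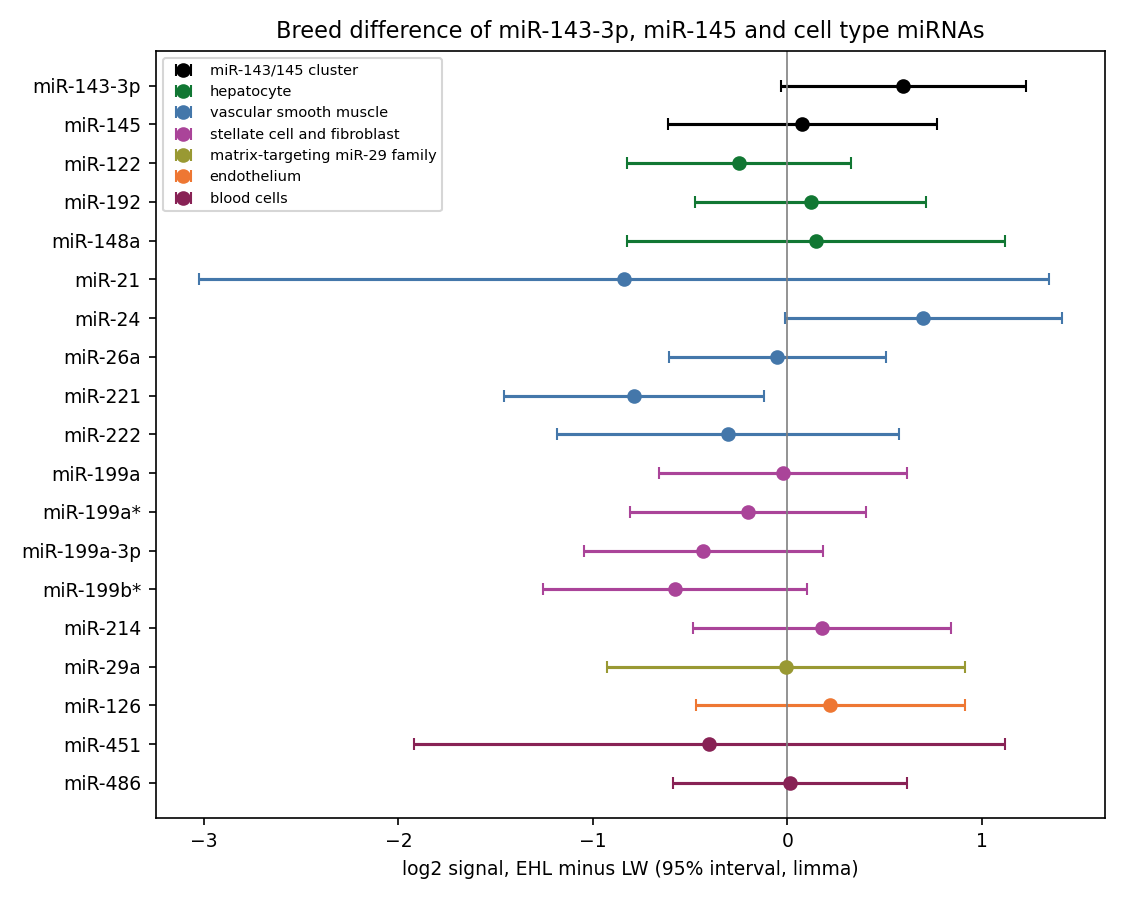
Log2 (EHL/LW) of miR-143-3p, miR-145 and the tested rows of the cell type lists, with 95% intervals from limma (3 arrays against 3) and a vertical line at 0. The interval of miR-143-3p runs from -0.034 to 1.23 and that of miR-145 from -0.62 to 0.77, and miR-24 at 0.70 and miR-221 at -0.79 lie farthest from 0 among the smooth muscle rows without overlap of the breeds.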

How the data were processed

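Liver small RNA was measured on 6 single-colour arrays. The authors subtracted the background, normalized by LOWESS and deposited whole-number intensities on a linear scale, 1 for each probe of an array, with some cells blank. All 6 columns were mapped to samples by label. Here the intensities were taken to log2 and not normalized again. The breeds were compared by limma 3.58.1 in R 4.3.3 (lmFit and eBayes, with no term beside breed). Rows were tested if they carried a pig miRNA name and were listed on 2 or more arrays in each breed. P-values were adjusted by Benjamini-Hochberg, and calls were made at 0.15, after the FDR of 15% in the methods. The main limma fit and SAM, but not the other alternatives, were tested on simulated data. Ratios within arrays and the correlation used exact permutation tests in Python 3.11.15 (scipy 1.17.1, numpy 2.4.6, pandas 2.3.3). Named are the miR-143 and miR-145 rows, all rows of the cell type lists, and for each of miR-143-3p and miR-145 the 3 rows with the highest Pearson's r over the 6 arrays. These miRNAs and lists were chosen with earlier results of these data known. Alternatives were SAM with 20 relabellings, centring, quantile normalization, other row filters, the unnamed LRS rows, array weights, a replicate block, ratios of mean signals and each array left out. P-values measure the spread between 3 pools a breed, and the number of arrays limits the precision. Sequencing, qPCR and mRNA data were not used here.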

Additional observations from a re-analysis of the deposited data

How the results depend on the processing

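The number of miRNAs called by limma was 1 as reported, with median centring, a minimum mean signal of 32, no filter and the rows listed on all 6 arrays. It was 8 with SAM, 2 with quantile normalization, 2 with the LRS rows, 7 with array weights and 0 with centring on all listed rows, a setting chosen after the data had been seen (9 at an unadjusted p under 0.05). With each array left out it ranged from 0 (without LW array 3 or EHL array 2, with 5 and 10 at an unadjusted p under 0.05) to 24 (without EHL array 1). The replicate block gave 0, with 8 at an unadjusted p under 0.05. The labels give no pairing of arrays by number. Deviations from the breed means had r of -0.50, -0.011 and -0.66 between arrays of the same number, over rows that are not independent. Whether arrays of the same number share a batch was not tested. The log2 (EHL/LW) of miR-143-3p was 0.31 with centring on all listed rows, 0.55 with median centring, 0.67 with quantile normalization and 0.67 with array weights, while SAM, the row filters and the replicate block cannot move it. With an array left out it ranged from 0.44 to 0.77, the highest being called without EHL array 1. That of miR-145 was -0.21 with centring on all listed rows, 0.034 with median centring, 0.055 with quantile normalization and 0.21 with array weights. With an array left out, that of miR-145 ranged from -0.0805 to 0.30. The log2 ratio of miR-143-3p to miR-145 differed between the breeds by 0.43 to 0.66 with an array left out and by 0.62 with quantile normalization. Relative to the hepatocyte miRNAs, miR-143-3p differed by 0.39 to 0.98 and miR-145 by -0.27 to 0.51 with an array left out, and miR-145 by -0.0877 with quantile normalization. Against miR-122 alone, itself at -0.25, they differed by 0.85 and 0.33. With the ratio of mean linear signals, added after the data had been seen, miR-451 was at 0.12. The correlation lay between 0.48 and 0.73 with an array left out. The cause of these moves was not tested. Signals near 10 to 16, the lowest listed, limit miR-143-5p, miR-133a-3p, miR-29b and miR-142, and miR-500 on LW array 3, among others. They do not limit miR-143-3p or miR-145.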
